A study of Homo sapiens with 2 samples.

Results

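Chromosome arm 8q, the long arm of chromosome 8, carried 432 of the 12943 PHF8 peaks of the series as gene-boundary peaks, 184 in the vector library and 248 in the APOC2 library. They were chosen by position among the peaks that passed the authors' calling threshold: beyond the gene-free interval of 3.01 Mb that spans the centromere (hg38), with the midpoint at most 1 kb from the start or end of a RefSeq gene that has a transcript. The arm itself was selected on the number of its vector peaks and their overlap with APOC2 peaks in these tables, so those values are descriptions. PHF8 was profiled by chromatin immunoprecipitation and sequencing (ChIP-seq) in RKO cells, a human line derived from a colon carcinoma. All cells were transfected, in 1 library with the vector and in the other with an APOC2 overexpression plasmid, and the same antibody lot was used for both. There was 1 library per condition, which leaves no replicate error to judge a difference by, and every value describes these libraries only. Read totals were unknown. From the scaling left in the values, which was less clear for APOC2, the APOC2 sample was sequenced to 0.824 times the vector depth if both were called against the same control.

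PHF8 is a JmjC-type histone demethylase that removes repressive methyl groups from histones. Its PHD finger binds a methylation mark of histone H3 that is typical of active promoters, and the protein is known for occupying the start sites of transcribed genes. APOC2 encodes apolipoprotein C-II, the cofactor of lipoprotein lipase. The arm 8q holds genes of translation, DNA repair and transcription, a cluster of zinc finger genes near its outer end, the MYC oncogene, and many genes restricted to nerve, muscle, gland or other specialised tissue. A boundary here is a gene start or a gene end, since both were counted alike.

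Boundary peaks were dense on 8q in both libraries. Of the 422 protein-coding genes of 8q, 170 had a vector boundary peak (40.3%, 95% Wilson interval 35.7 to 45.0%), where 5.95% of all protein-coding genes did. In the APOC2 library 223 had one (52.8%, 48.1 to 57.6%), where 23.8% of all protein-coding genes did. On the short arm, 8p, the shares were 7.19% (4.75 to 10.7%) and 22.6% (18.2 to 27.7%), and on the other chromosomes 5.18% and 23.2%. The arm held 2.11% of all protein-coding genes, 184 of 1152 vector boundary peaks and 248 of 4777 APOC2 boundary peaks (5.19%). These intervals cover counting only. Peaks are not replicates, so no test was made of the difference from other arms.

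A larger share of the APOC2 boundary peaks had a vector peak on 8q than on 8p. On 8q, a vector peak overlapped 167 of 248 APOC2 boundary peaks by at least 1 bp (67.3%, 61.3 to 72.9%), against 22.9% over all chromosomes. On 8p, 16 of 66 were (24.2%, 15.5 to 35.8%), and on the other chromosomes 912 of 4463 (20.4%, 19.3 to 21.6%). In the opposite direction, 180 of 184 vector peaks of 8q (97.8%, 94.5 to 99.2%) were overlapped by an APOC2 peak, near the 97.5% of all chromosomes. On 8p all 16 vector boundary peaks were overlapped. The APOC2 library had 1.35 times as many boundary peaks as the vector library on 8q and 4.13 times as many on 8p. Where the peak itself had to overlap a gene start or end, the shares of APOC2 peaks overlapped were 77.5% on 8q and 39.4% on 8p, and the ratio on 8q was 2.07.

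**Figure D1:**
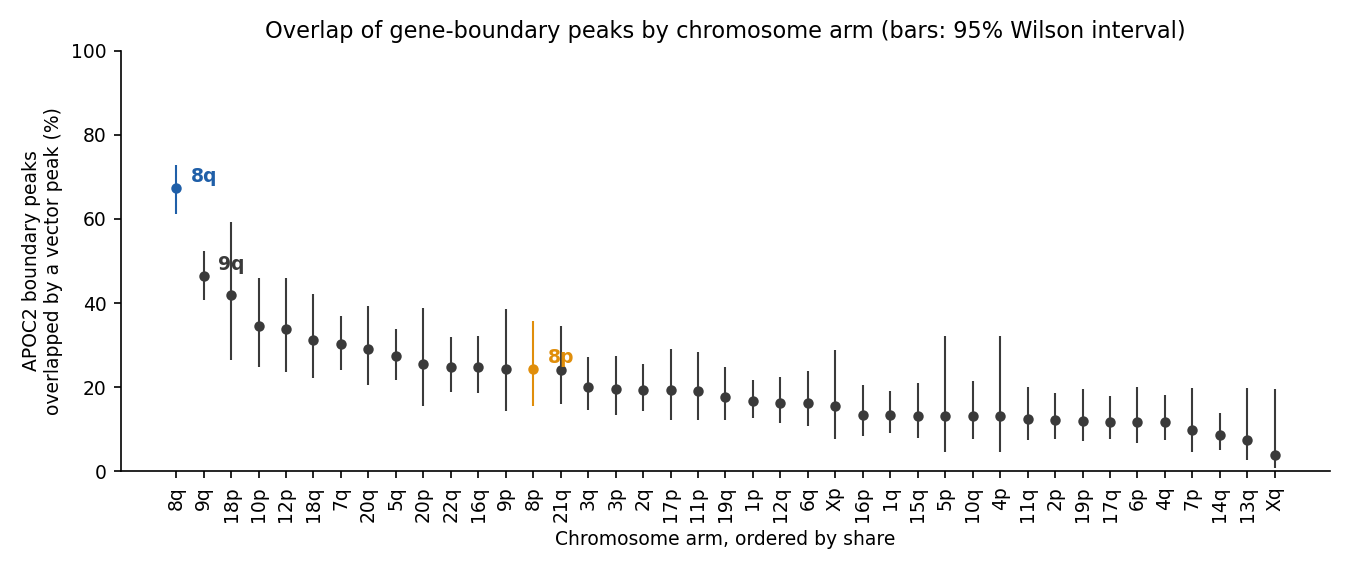
Share of APOC2 boundary peaks overlapped by a vector peak (y axis, percent) in each of 41 chromosome arms with at least 20 such peaks (x axis), with 95% Wilson intervals as bars. The arm 8q stands at 67.3%, 9q at 46.5% and 8p at 24.2%.

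Among 41 arms with at least 20 APOC2 boundary peaks, 8q had a higher share overlapped than the 40 others (the plot of overlap by arm). The arm was selected on this overlap and on its vector peaks, so its rank is a description and was not tested. The nearest was 9q with 46.5% (40.8 to 52.3%), and the median of the 40 was 17.2%. The number of boundary peaks per 100 protein-coding genes was 43.6 on 8q in the vector library, against 24.6 on 9q, 5.48 on 8p and a median of 4.24 over the 40 other arms. In the APOC2 library it was 58.8 on 8q, 50.5 on 9q and 22.6 on 8p, with a median of 24.1.

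The median boundary peak of 8q was stronger than the median over the other chromosomes, in both libraries. In the vector library their median pileup, the number of fragments at the summit, was 32.65 (95% order-statistic interval 30.68 to 34.63), against 27.71 on the other chromosomes. Fold enrichment over local background had a median of 5.90 (5.44 to 6.27) against 4.95. In the APOC2 library the median pileup was 38 (35 to 40) against 28, and the median fold enrichment 7.33 (6.84 to 8.01) against 5.22. On 8p the vector medians were 30.2 (23.75 to 40.57) and 5.29 (3.63 to 6.93), with intervals that take in the 8q values, and the APOC2 medians were 27 and 5.25. On 9q they were 36.1 and 5.25 with the vector and 36 and 6.34 with APOC2. Among the 41 arms named above, the vector median pileup was higher than on 8q on 9q, 20p, 11q and 21q, and the vector median fold enrichment on 9p, 4p, 13q and Xq, of which all but 9q had at most 19 vector boundary peaks. No APOC2 median of these arms was above that of 8q. The local background implied by pileup and fold enrichment did not follow the pileup. Its median on 8q was 4.93 fragments in the vector library, where it was 5.00 on the other chromosomes and 5.41 on 8p. In the APOC2 library it was 4.16 on 8q, 4.36 on the other chromosomes and 4.26 on 8p.

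The overlap on 8q was higher also among APOC2 peaks of like strength. At a fold enrichment from 8 to below 10, a vector peak overlapped 40 of 43 APOC2 boundary peaks of 8q (93.0%, 81.4 to 97.6%) and 177 of 335 on the other chromosomes (52.8%, 47.5 to 58.1%). From 5 to below 6 it was 17 of 31 on 8q (54.8%, 37.8 to 70.8%) and 14.6% elsewhere. Among the weakest peaks, below 4, it was 4 of 20 on 8q (20%, 8.07 to 41.6%) and 6.46% elsewhere. With pileup in place of fold enrichment, peaks of 40 to below 50 fragments were overlapped in 89.3% on 8q and 40.5% elsewhere. At equal fold enrichment from 8 to below 10, 9q had 85% of 40 peaks overlapped, inside the 8q interval, and 8p had 3 of 5.

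**Figure D2:**
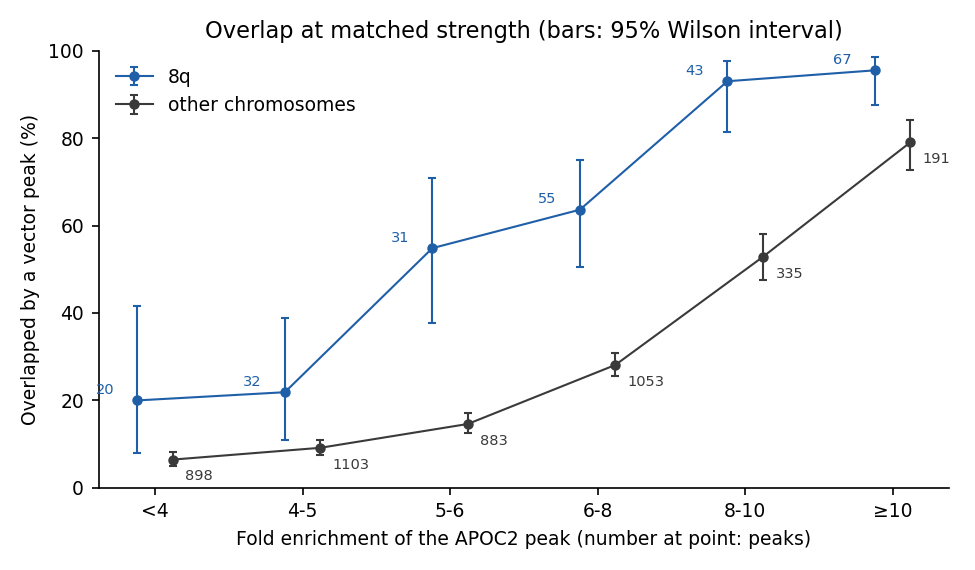
Share of APOC2 boundary peaks overlapped by a vector peak (y axis, percent) by the fold enrichment of the APOC2 peak (x axis), on 8q (blue) and on the other chromosomes (dark grey), with 95% Wilson intervals and the number of peaks at each point. The 8q points run from 20% in the lowest range to 95.5% in the highest, and the other chromosomes from 6.46% to 79.1%.

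The density held along the length of the arm rather than at 1 place. Counted in steps of 10 Mb from the inner end, the share of protein-coding genes with a vector boundary peak lay between 24.3% and 56.5%. All 10 steps were thus above the 5.18% of the other chromosomes. The lowest value was in the innermost step, with 9 of 37 genes. The highest was 70 to 80 Mb out (116549089 to 126549088), with 26 of 46 genes. In the APOC2 library the shares lay between 37.5% and 67.4%, again highest 70 to 80 Mb out. The outermost step (136549089 to 146549088) held 108 protein-coding genes, 59 vector peaks and 73 APOC2 peaks, 52 of them shared (71.2%, 60.0 to 80.3%). The innermost step had 6 of 12 overlapped (50%, 25.4 to 74.6%). The intervals of these overlap shares meet. The lowest and highest share of genes with a vector peak had intervals of 13.4 to 40.1% and 42.2 to 69.8%. These steps were picked as the extremes of 10 once the values were seen. Variation of the share along the arm was not tested.

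Along 8p the peaks were densest in the innermost step. The step from the outer end of 8p to 10 Mb held 1 vector and 12 APOC2 boundary peaks. The innermost step, from 40 Mb, held 5 and 15, at genes such as HGSNAT, a lysosomal acetyltransferase, and VDAC3, a channel of the outer mitochondrial membrane. In that step 7 of 26 protein-coding genes had a vector peak (26.9%, 13.7 to 46.1%) and 15 an APOC2 peak (57.7%, 38.9 to 74.5%), inside the range of the 8q steps. In the 4 other steps of 8p the vector share was at most 8% and the APOC2 share at most 32%.

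**Figure D3:**
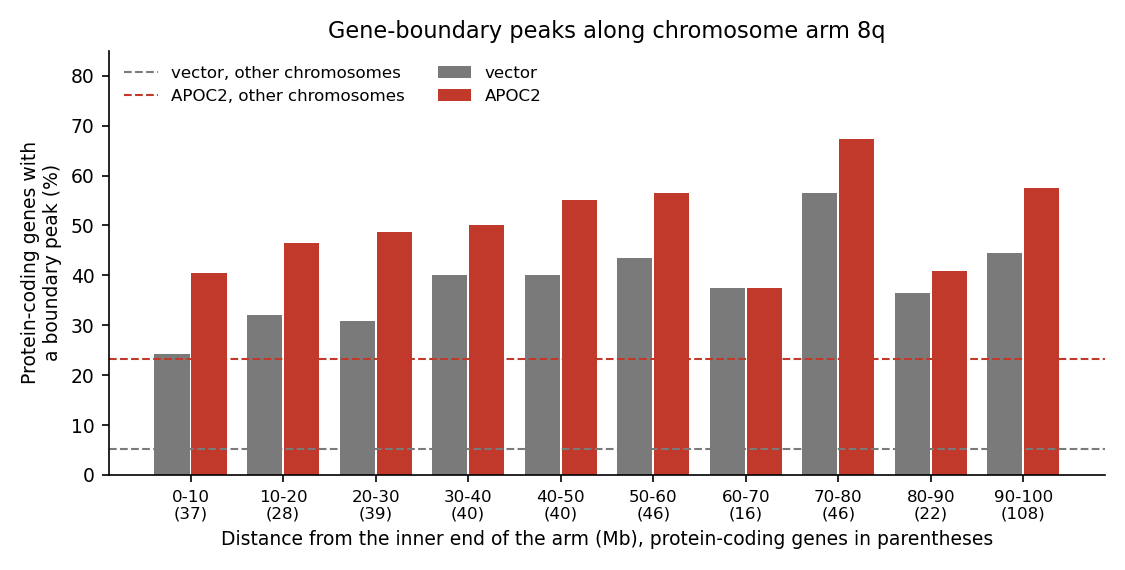
Share of protein-coding genes with a boundary peak (y axis, percent) in steps of 10 Mb from the inner end of 8q (x axis, number of genes in parentheses), for the vector (grey) and APOC2 (red) library, with dashed lines for the other chromosomes. The vector bars lie between 24.3% and 56.5%, above the dashed vector line at 5.18%.

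The longest stretch of 8q without a boundary peak was nearly the same in both libraries. It ran for 7.12 Mb between SYBU-AS1 and the shared boundary of EIF3H and UTP23 (109644863 to 116766535 in the vector table) and enclosed 4 protein-coding genes there and 3 in the APOC2 table. The next ran for 5.68 Mb from ZFAT to CHRAC1, with 5 protein-coding genes inside. Between neighbouring boundary peaks the median distance was 115 kb with the vector and 92.1 kb with APOC2. The outermost vector boundary peak lay at ZNF252P and the innermost at SPIDR, a scaffold of DNA repair, in both libraries.

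Some features of the members were not used by the position rule. A protein-coding gene was among the genes at 93.5% of the vector peaks and 94.8% of the APOC2 peaks of 8q, against 90.8% and 92.3% on the other chromosomes. In the same order the shares were 100% and 95.5% on 8p, and 94.2% and 94.4% on 9q. At 85 vector peaks (46.2%) and 111 APOC2 peaks (44.8%), more than 1 gene had a boundary in reach, against 40.5% of boundary peaks of the other chromosomes in either library. On 8p this held for 43.75% of vector and 50% of APOC2 peaks, and on 9q for 45.7% and 40.8%. The midpoint of 141 vector peaks (76.6%) lay on the gene side of the nearest boundary, against 83.7% on the other chromosomes and 81.3% on 8p. For APOC2 peaks the share was 72.6% on 8q, 78.3% on the other chromosomes and 71.2% on 8p. By kind of gene, 47 of 563 long noncoding RNA genes and 3 of 57 microRNA genes had a vector boundary peak, and 59 and 5 had an APOC2 boundary peak. Of all 8q genes that are not protein-coding, 7.61% had a vector and 9.70% an APOC2 boundary peak. Over all chromosomes these shares were 1.64% and 6.12%.

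The shared boundary peak of 8q with the highest vector fold enrichment was at RAD54B, a helicase-like protein of homologous recombination (94474640 to 94475435 in the APOC2 table). Its pileup was 38.59 with the vector and 41 with APOC2, and its fold enrichment 19.8 and 22.9 in the same order, which is kept for all such pairs of values. TBC1D31, a protein of the centrosome region (123072548 to 123073161), had pileups of 56.4 and 63 and fold enrichments of 19.1 and 30.6, the highest APOC2 value on the arm. At CIBAR1 and its divergent transcript CIBAR1-DT (93700194 to 93701261), a BAR-domain protein of cilium formation, pileups were 54.42 and 55 and fold enrichments 18.5 and 24.7. All these peaks were strong in both libraries.

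Next by vector fold enrichment came GSDMD, the pore-forming gasdermin of pyroptosis, with fold enrichments of 14.6 and 17.1. The zinc finger gene ZNF572 had 12.7 and 15.3. FZD6, a Wnt receptor, had 12.2 and 18.2. The boundary of ZC2HC1A had 12.2 with the vector and a log2 ratio of -0.03, the only one of the group below 0. PTK2, which encodes focal adhesion kinase, had 11.8 and 16.4. The shared boundary of NUDCD1 and ENY2, a subunit of the SAGA and TREX-2 complexes, had 11.7 and 15.3, and that of KIFC2, a kinesin, had 11.4 and 17.5. Of these 10 boundaries, 9 had the higher fold enrichment in the APOC2 library. With pileups set to equal depth, the ratio of APOC2 to vector was 1.28 at RAD54B (exact binomial interval 0.803 to 2.03) and 1.56 at KIFC2 (1.07 to 2.29), so counting error alone covers a ratio of 1 at the former.

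At boundaries shared by the libraries, fold enrichment was mostly higher with APOC2. Over the 166 shared pairs of 8q fold enrichment had medians of 5.92 with the vector and 8.80 with APOC2. The median log2 ratio was 0.61 (0.53 to 0.67), and 156 pairs were above 0 (94.0%, where 89.3% of all boundary pairs were). At 22 pairs the APOC2 value was at least 2 times the vector value (13.3%, where 9.73% of all boundary pairs were). On 8p the median was 0.47 (0.16 to 0.94) over 16 pairs and on the other chromosomes 0.49 (0.46 to 0.52), so the 8p interval takes in the 8q value. The arm 9q had 0.60 (0.47 to 0.66) over 132 pairs, close to 8q. With pileup scaled to equal depth the medians were 0.65 on 8q, 0.48 on 8p and 0.54 on the other chromosomes. With pileup as deposited, in units of unequal depth, the 8q median was 0.39. The background under the pairs of 8q, in units of the control, had medians of 4.93 with the vector and 5.00 with APOC2. With every difference counted, however small, it was lower with APOC2 at 105 of the 166 pairs, and at 571 of 907 on the other chromosomes.

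**Figure D4:**
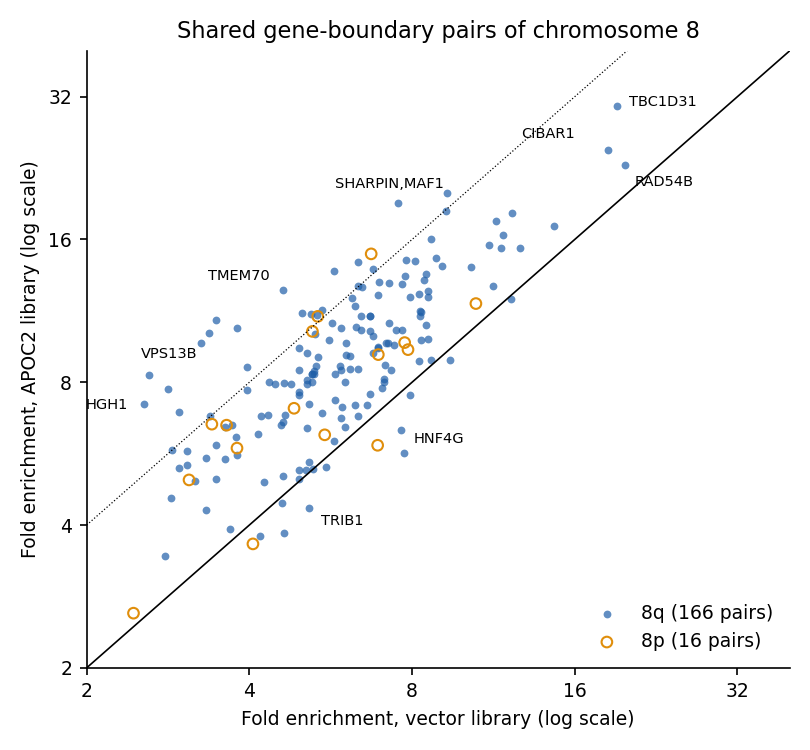
Fold enrichment in the vector library (x axis, log scale) and in the APOC2 library (y axis, log scale) at shared boundary pairs of 8q (166 filled points) and 8p (16 open circles). The solid line marks equal values and the dotted line an APOC2 value 2 times the vector value; 156 of the 8q points lie above the solid line.

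The higher values with APOC2 were seen at weak and strong boundaries alike. Pairs of 8q with a vector fold enrichment below 4 had a median log2 ratio of 0.83 (0.70 to 1.12, 28 pairs), and those of at least 8 had 0.45 (0.32 to 0.58, 33 pairs). On the other chromosomes these medians were 0.65 and 0.33. The vector value stands in both quantities, so they are not independent.

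The largest ratio on the arm, at VPS13B and VPS13B-DT (99012593 to 99013914), depended on how peaks were paired. VPS13B is a large lipid-transfer protein of the Golgi. A long APOC2 peak with a fold enrichment of 8.31 overlapped 2 vector peaks there, of 2.61 and 5.48. Paired by longest overlap the log2 ratio was 1.67, and against the stronger vector peak it was 0.60. The same held at HGH1, a chaperone of a translation factor, where the ratio was 1.49 or 0.24. At the boundary shared by SHARPIN, of the linear ubiquitin ligase, and MAF1, a repressor of RNA polymerase III, it was 1.35 or 0.91. On 8q 13 APOC2 boundary peaks (7.78%) overlapped 2 vector peaks, and on the other chromosomes 1.87% did.

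Other large ratios rested on 1 vector peak each and did not depend on the pairing. ZNF252P, a zinc finger pseudogene, and ZNF252P-AS1 had pileups of 33.64 and 55, fold enrichments of 3.46 and 10.8 and a log2 ratio of 1.65. At OXR1-AS1 the pileups were 32.65 and 60 and the log2 ratio was 1.60. ZHX1, a zinc finger and homeobox repressor, had pileups of 21.77 and 49 and a ratio of 1.57. TONSL, which guards replication forks, had the same pileups and a ratio of 1.45. All 4 had the higher pileup and the lower background in the APOC2 table, in units of unequal depth.

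PDE7A, a phosphodiesterase that breaks down cyclic AMP, had fold enrichments of 2.83 and 7.73. TMEM70, an assembly factor of mitochondrial ATP synthase, had 4.62 and 12.5. ZNF250, a zinc finger gene, completed the 10 largest with 5.74 and 13.8. The ratio of pileups set to equal depth was 2.36 at ZNF250 (1.56 to 3.63), 2.19 at TMEM70 (1.48 to 3.29), 2.70 at TONSL (1.60 to 4.70) and 1.96 at ZNF252P (1.26 to 3.11). At ZNF252P the local background was 8.999 with the vector and 4.16 with APOC2, in units of unequal depth. The background enters its fold enrichment but not its ratio of pileups. These pairs were picked as the largest ratios of fold enrichment, into which pileup enters. Their counting intervals are therefore no test against a ratio of 1.

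A lower fold enrichment with APOC2 was seen at 10 of the 166 pairs. The lowest log2 ratio, -0.44, was at LOC124902038. Pileups there were 32.65 and 33 and the background 3.36 and 4.99, in units of unequal depth. TRAM1, of the protein translocation channel, had -0.27, and HNF4G, a nuclear receptor of the gut and liver family, also had -0.27. TRIB1, a pseudokinase, had -0.25. With pileup set to equal depth TRAM1 had a ratio of 1.49 (0.902 to 2.47) and HNF4G 0.910 (0.466 to 1.75), and the counting intervals of all 10 such pairs included 1. PTP4A3, RNF139, LY6E, ZC2HC1A and the boundary of MRPL13 and MTBP lay between -0.08 and -0.03. MED30, a Mediator subunit, had a weak second APOC2 peak, of 12 fragments, which overlapped the edge of the vector peak and had a ratio of -0.80 to it, while its paired APOC2 peak had 44.

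The APOC2 peaks of 8q were also longer. At the shared pairs the median length was 358 bp with the vector and 695 bp with APOC2. Of the pair, the APOC2 peak was the longer at 155 pairs of 8q (93.4%), against 87.4% on the other chromosomes. On 8p it was the longer at 15 of 16 pairs (93.75%), so this was not particular to 8q. The longest vector peak covered 1310 bp at HNF4G, followed by CIBAR1 (1133 bp), FZD6 (1070 bp), ZNF623 (947 bp) and AZIN1 (889 bp). The longest APOC2 peak covered 1657 bp at CEBPD, a transcription factor of the C/EBP family, and had no vector partner. It was followed by RNF139 (1646 bp), SHARPIN and MAF1 (1588 bp), IL7 (1467 bp) and NDUFB9 (1460 bp).

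At 81 of 248 APOC2 boundary peaks of 8q no vector peak overlapped, against 3682 of 4777 over all chromosomes. The 81 peaks were weaker than the shared ones, with a median pileup of 27 against 43 and a median fold enrichment of 4.98 against 8.72. This contrast was not particular to 8q. The median pileup of unshared and shared peaks was 26 against 35 on the other chromosomes and 25 against 36.5 on 8p. Median fold enrichment was lower in the unshared peaks there too. Among the 81 peaks of 8q, the highest fold enrichment was at DERL1, of protein export from the endoplasmic reticulum (123041924 to 123042538). It had a pileup of 50 and a fold enrichment of 11.8. JPH1, a junctophilin, had 33 and 11.3, and RRM2B, a subunit of ribonucleotide reductase, had 56 and 10.3. LOC124902075 had 9.94, ASAP1, a regulator of ARF GTPases, 8.17, FAM83H 8.12, and PLEC with PARP10 7.78. FABP5, a fatty acid binding protein, had 7.42, PTP4A3, a phosphatase, 7.32, and RAD21, a cohesin subunit, 7.19. RRM2B and PTP4A3 also had another boundary peak that was found in the vector table.

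The 4 vector boundary peaks of 8q without an APOC2 partner had low pileups. MRPL15, a mitochondrial ribosomal protein (54134902 to 54135416), had a pileup of 20.78 and a fold enrichment of 6.72. The peak at OTUD6B had 11.87 and 4.27, that at TAF2 10.88 and 5.85, and that at RNF139-DT 10.88 and 5.95. OTUD6B, TAF2 and RNF139-DT had another boundary peak in the APOC2 table, so MRPL15 was the only protein-coding gene of 8q whose boundary peak was listed for the vector and not for APOC2.

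By gene, 219 of the 1092 genes of 8q with a transcript had a boundary peak in both tables, 69 only in the APOC2 table and 2 only in the vector table. Over all chromosomes 3.65% of such genes had a vector peak and 14.4% an APOC2 peak; on 8q 20.2% and 26.4% did. Of the 288 genes with an APOC2 boundary peak, 76.0% also had a vector boundary peak, against 27.0% on 8p and 22.2% on the other chromosomes. Where the peak itself had to overlap the gene start or end, 86 genes of 8q had one in both tables and 99 only in the APOC2 table.

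Boundary peaks were counted in gene lists that were written with earlier results of these data known. The lists hold 159 genes of 8q in 10 groups, set beside the 40.3% (vector) and 52.8% (APOC2) of all protein-coding genes of the arm. For genes of 8q that are not protein-coding these shares were 7.61% and 9.70%. Genes that share a boundary can share a peak, so the counts are not independent. Where a listed gene had several peaks, its strongest in each table is given. At 9 listed genes (DCAF13, ATAD2, RRM2B, TAF2, ZNF250, SLC25A32, COPS5, OTUD6B and TRIB1) these lay side by side without overlap. Among 13 genes of translation and the ribosome, 11 had a vector and 11 an APOC2 boundary peak. The cytosolic ribosomal protein gene RPL8 had pileups of 35.62 and 60 and fold enrichments of 3.33 and 5.55. PABPC1, the poly(A)-binding protein, had 16.82 and 29 fragments and 2.97 and 6.93-fold enrichment. RPL7, RPL30, EIF3E, EIF3H and MRPS28 had peaks in both libraries, all with the higher fold enrichment in the APOC2 table. EEF1D had an APOC2 peak alone, and RPS20 had none listed.

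Among 14 genes of DNA replication, repair and cohesin, 8 had a vector and 13 an APOC2 boundary peak. MCM4, of the replicative helicase, and PRKDC, the DNA-dependent protein kinase, share a boundary that had an APOC2 pileup of 32 and a fold enrichment of 4.83. NBN, of the MRN complex, had 14 and 3.24, and CCNE2, a G1 cyclin, had 28 and 3.79. These, with RAD21, were the 5 members with a listed peak in the APOC2 library alone. TERF1, which binds telomeres, had fold enrichments of 6.93 and 12.2, and NSMCE2, of the SMC5/6 complex, 5.11 and 8.08.

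Of 16 genes of transcription and RNA processing, 14 had a peak in both libraries. HSF1, the heat shock factor, had pileups of 51.46 and 72 and fold enrichments of 8.85 and 14.6. CPSF1, of mRNA 3′ processing, had 7.77 and 13.4, and ELOC, elongin C, 4.95 and 9.47. EXOSC4 and KHDRBS3 had no boundary peak listed, though the shared pair at LOC124902038 lay within EXOSC4. Of 17 chromatin regulators and sequence-specific factors, 4 had a vector peak and 7 an APOC2 peak. PHF20L1, a reader of methylated lysine, had pileups of 45.52 and 86 and fold enrichments of 9.30 and 20.1, and CHD7, a chromatin remodeller, had 4.95 and 8.51. The 10 others had no boundary peak listed, among them SOX17, PRDM14, TOX, HEY1, NCOA2, TRPS1 and KLF10. At KLF10 and TRPS1 an APOC2 peak lay just beyond the 1 kb limit, at 1104.5 and 1217 bp. Away from its boundaries NCOA2 held a peak of both libraries, with fold enrichments of 6.57 and 10.6.

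All 14 listed zinc finger genes of 8q24 had an APOC2 boundary peak and 13 had a vector one, ZNF34 being the exception among them. Of the zinc finger and homeobox genes, counted in another list, ZHX1 had a boundary peak in both libraries and ZHX2 with APOC2 alone. ZNF7 had pileups of 36.61 and 68 and fold enrichments of 6.34 and 14.3. ZNF517 had 11.1 and 15.6, and GLI4 had 5.44 and 11.4. Fold enrichment of the strongest peaks was higher with APOC2 at 12 of the 13. The exception, ZNF250, turned on the distance limit: the APOC2 peak of its pair above had its midpoint just beyond 1 kb from the gene, and the strongest within reach had 5.51.

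**Figure D5:**
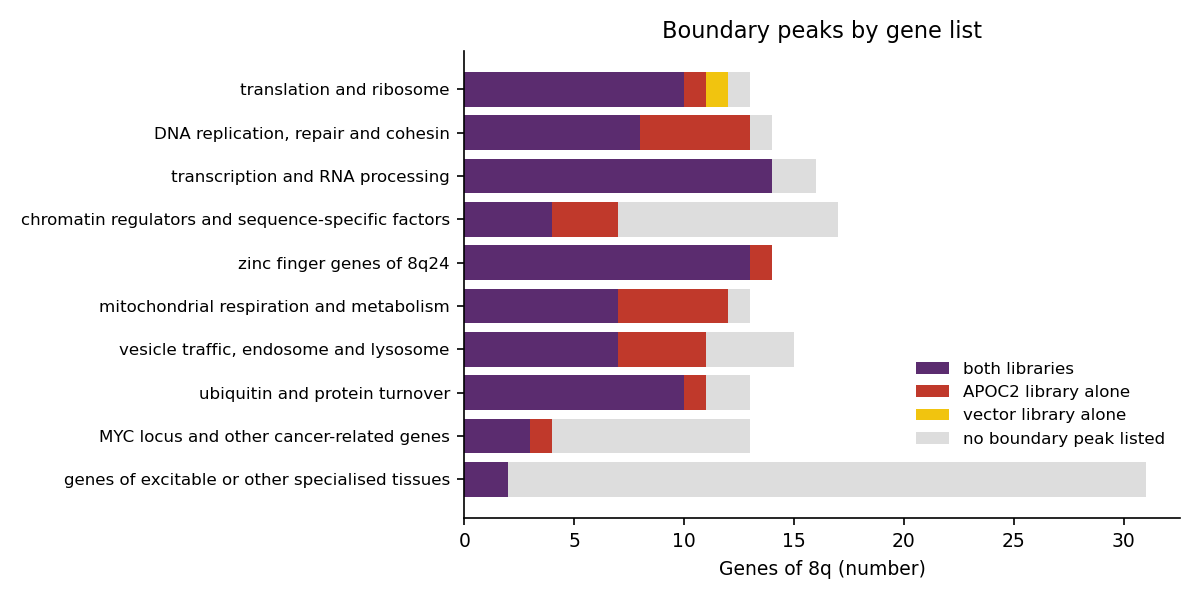
Number of 8q genes (x axis) with a boundary peak in both libraries, in 1 library alone or in neither, for 10 gene lists (y axis). All 14 listed zinc finger genes of 8q24 have a peak, and 29 of 31 genes of specialised tissues have none listed.

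Of 13 genes of mitochondrial respiration and metabolism, 7 had a vector and 12 an APOC2 boundary peak. NDUFB9, of respiratory complex I, had pileups of 26.72 and 48 and fold enrichments of 9.24 and 18.4, and CYC1, cytochrome c1, had 7.24 and 10.7. OXR1, MTFR1, DECR1, NDUFAF6 and PYCR3 had a boundary peak in the APOC2 table alone. Away from its boundaries NDUFAF6 held a peak of both libraries, with fold enrichments of 7.35 and 11.3. The shared pair at OXR1-AS1 lay within OXR1. Of 15 genes of vesicle traffic, 7 and 11 had peaks, with RAB2A, a GTPase of the early secretory pathway, at fold enrichments of 8.41 and 13.2. Of 13 genes of ubiquitin and protein turnover, 10 and 11 did. FBXO32, a ubiquitin ligase subunit, had 6.94 and 13.0, and WWP1, a HECT-type ubiquitin ligase, had 6.93 and 9.47.

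Of 31 listed genes of specialised tissues, 29 had no boundary peak listed in either table. Among them were the opioid precursor PENK, the potassium channel genes KCNQ3 and KCNB2, and the bile acid enzyme CYP7A1. The other two were CA2, a carbonic anhydrase, with fold enrichments of 4.95 and 5.00, and the cytokine gene IL7, with 7.09 and 8.01. Among 13 genes of the MYC locus and other cancer-related genes, 3 had a peak in both libraries, namely LRATD2, TRIB1 and PTK2. YWHAZ, a 14-3-3 protein, had a boundary peak with APOC2 alone, while a peak of both libraries lay farther inside, 1719.5 bp from the boundary in the vector table. MYC, PVT1 and the 7 noncoding or retrogene loci around them had none listed. Of the 8q genes that are not protein-coding, only 7.61% had a vector and 9.70% an APOC2 boundary peak.

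Outside the boundaries, 8q had 43 vector and 96 APOC2 peaks. Of these, 37 vector peaks (86.0%) and 38 APOC2 peaks (39.6%, 30.4 to 49.6%) were overlapped by a peak of the other library. The vector share over all chromosomes was 78.0%, inside the 8q interval of 72.7 to 93.4%. On the other chromosomes 54.0% of such APOC2 peaks were overlapped (52.4 to 55.5%), a higher share than on 8q. Their positions were unlike, with a median distance to a boundary of 9599.5 bp on 8q and 689814 bp on the other chromosomes. Peaks at like distances were not compared. In both libraries the highest fold enrichment of these 8q peaks lay inside ARHGAP39 (144685397 to 144686472 in the APOC2 table), at 13.8 and 20.4. Close to the threshold distance, the vector peak at LINC02947 lay inside with its midpoint 968 bp away. The APOC2 peak of the same site lay outside at 1024 bp, with fold enrichments of 11.2 and 18.5. At RPL7 a second peak lay outside at 1017 and 1012 bp, with fold enrichments of 8.85 and 13.6.

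Among shared boundaries of 8p with a high vector fold enrichment, R3HCC1 had 7.86 and 9.37, MTMR9, a myotubularin, 7.75 and 9.70, PPP2CB, of protein phosphatase 2A, 6.93 and 9.15, and TNKS, a tankyrase, 6.91 and 5.89. By fold enrichment, the strongest APOC2 peak of 8p without a vector partner was at RPL23AP53 and ZNF596 with 13.5, followed by XKR6 (9.40), TM2D2 with ADAM9 (8.68), SNORA99 (7.79) and ERICH1 (7.34).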

How the data were processed

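PHF8 ChIP-seq peaks of 2 RKO libraries were analysed, 1 per condition, with groups taken from the treatment in the labels. Per the submitters' processing notes, Bowtie2 2.2.9, MACS2 2.0 and HOMER were used with hg38. The roles of HOMER and of any control, the thresholds and duplicate removal are not given in the sources used here. Per the file headers, the deposited tables give for each peak the pileup signal at the summit and the fold enrichment over local background. A pair of deposited columns without a name held −log10 of the p-value and of the q-value, judged by place and values. Peaks were called per library.

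The members, gene lists and comparisons were chosen with earlier results of these data known. Gene ends came from a RefSeq table (GRCh38.p14; 43039 placed genes with a transcript), which gave no strand. Peaks were compared with Python 3.11.15 and checked with bedtools 2.31.1 and on simulated data. Shared means an overlap of at least 1 bp. Pairs were formed by longest overlap, each peak used once, with both peaks at a boundary. The local background was computed as (pileup + 1) / fold enrichment − 1. All vector pileups were multiples of 0.98954. Of the APOC2 backgrounds above 1.5, 64.1% were multiples of 0.8325 within 0.002, so APOC2 pileups were divided by 0.8325 for equal depth. This rests on that share and on both tables having the same control. Arms were divided at the middle of the longest gene-free interval. A gene with several peaks is given by that of highest fold enrichment. Intervals are 95% Wilson, order-statistic or, for pileup ratios, exact binomial intervals. They cover counting error only, as the fragments carry no molecular identifiers. Named by fold enrichment were the 10 strongest shared, 10 highest and 10 lowest pairs by ratio, the 10 strongest unshared APOC2 peaks, all unshared vector peaks, the 5 longest peaks per library, the list members and 5 of each kind on 8p. Windows, thresholds, overlap rules, gene types and measures were varied. A few of the genes this rule names are not reported here.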

Additional observations from a re-analysis of the deposited data

How the results depend on the processing

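Of 78 recomputed values for 8q and 8p, 64 stayed inside the interval of the reported value or, for gene numbers, within 1.5 times of it, 14 did not, and 0 reversed. Except where a value or the alternative's construction shows it, the cause was not tested. Requiring the peak to overlap the gene start or end gave 77.5% of APOC2 peaks overlapped on 8q and 39.4% on 8p, a ratio of peak numbers of 2.07 on 8q and 86 genes with peaks in both libraries. With a fold enrichment of at least 5, which removes weak vector partners, 59.7% were overlapped on 8q. Reciprocal overlap of 50% gave 47.2% of APOC2 and 63.6% of vector peaks of 8q, and counting peaks within 1 kb as shared gave 76.2% and 99.5%. The median log2 ratio on 8q was 0.39 with pileup as deposited, in units of unequal depth, and 0.82 with −log10 p. Genes with a vector peak alone numbered 7 with a 0.5 kb window, 1 with a 3 kb window and 1 among protein-coding genes. Setting each APOC2 peak against the strongest vector peak it overlaps, an alternative chosen after seeing the data, gave a median of 0.60 on 8q. No paired analysis was possible because there was 1 library per condition. Depth was unknown, so a boundary without a listed peak may carry signal below the threshold.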
